A study of Arabidopsis thaliana with 90 samples.

Results

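The genes described here encode the machinery that methylates lysine 4 of histone H3 (H3K4) in Arabidopsis thaliana, and the question put to the data was which chromatin proteins and marks occupy these genes themselves. They are the 7 H3K4 methyltransferase genes ATX1, ATX2, ATX3, ATX4, ATX5, ATXR3 and ATXR7 and the 3 COMPASS core subunit genes WDR5A, ASH2R and RBL. The 10 genes were chosen by name and found by locus identifier among 27444 nuclear protein-coding genes, by a rule that uses no measured value. Earlier results of these data were known when the genes were chosen.

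COMPASS is a conserved complex in which a SET-domain enzyme works with the core subunits WDR5, ASH2 and RbBP5 to add methyl groups to H3K4. In plants the trithorax-like enzymes ATX1 to ATX5 and the related enzymes ATXR3 and ATXR7 share this work, and H3K4me3 marks the start of transcribed genes while H3K4me1 lies in gene bodies. The DREAM complex, to which E2F factors and BTE1 belong, represses cell-cycle genes.

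All 30 libraries used were from whole wild-type seedlings (Col-0 ecotype), 9 days old and kept under continuous white light, with no treatment and 3 biological replicates for each of 10 features. The features were BTE1, E2FA, HA-tagged WDR5A (WDR5A-HA), RNA polymerase II in total (total Pol II) and in the forms phosphorylated at Ser5 (Ser5P) or Ser2 (Ser2P), the histone variant H2A.Z, and H3K4 carrying 1, 2 or 3 methyl groups (H3K4me1, H3K4me2, H3K4me3). The tagged line was also labelled Col-0, and its transgene was not described. For the TATA-binding protein TBP 1 list of regions was used, which has no replicates. Mutant, input and control libraries are not analysed here, so every value below is from the wild type and no control precipitation stands beside it. Whole seedlings mix many cell types, and a feature present in fewer cells and a feature weaker in every cell cannot be told apart.

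The values are the authors' peaks for each library, with a fold enrichment at each peak over the peak caller's background. This fold is a height at 1 position and is not summed over gene length. A gene was called for a feature when a peak touched the gene or 500 bp on either side of it in all 3 libraries. Libraries held 1395 to 27063 peaks, the fewest for BTE1 and the most for H2A.Z, and read depth was unknown. A missing peak means that none passed the authors' threshold. Green tissue checked as labelled: 6 of 6 photosynthesis marker genes were called for all 3 forms of Pol II, against 2 of 7 seed and flower markers for total Pol II (AP3 and AG) and 1 of 7 (AP3) for Ser5P and for Ser2P.

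The 10 genes fell apart by which of them carried the DREAM proteins. BTE1 was called at 3 of the 10, ATX1, ATX3 and ATX4, against 5.33% of all genes. E2FA was called at the same 3 genes, against 8.95% of all genes. Without replicate 2, the E2FA library with the fewest peaks, E2FA was called at 5 of the 10, with ATX5 and ATXR7 added, against 15.0% of all genes. With all 3 libraries, none of the core subunit genes, nor ATX2, ATX5, ATXR3 or ATXR7, was called for either protein. WDR5A-HA was called at 7 of 10 genes, against 51.8% of all genes, and was missing from the call at ATX1, ATXR3 and ATXR7. Total Pol II was called at 7 genes against 46.7% of all genes, Ser5P at 7 against 45.9% and Ser2P at 7 against 47.6%. Of the 7 genes called for total Pol II, only at ATX5 did the highest peak have its summit inside the gene. H3K4me2, H3K4me3 and H2A.Z were called at 10 of 10 genes, against 63.7%, 64.1% and 80.2% of all genes, and H3K4me1 at 8, against 38.3%. TBP regions touched 9 genes, all but ATX1, against 57.7% of all genes.

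The methyltransferase genes are long, 6206 bp (ATX3) to 11182 bp (ATXR3), and the core subunit genes 2150 bp (WDR5A) to 2823 bp (RBL), against a median of 2078 bp over all genes. Longer genes have larger windows. Among genes of 3000 bp or more the shares called were 8.48% for BTE1, 14.4% for E2FA, 63.5% for WDR5A-HA and 72.5% for TBP. They were 58.2% for total Pol II, 62.0% for Ser5P and 64.4% for Ser2P. For the histone features they were 72.3% for H3K4me1, 82.1% for H3K4me2, 82.3% for H3K4me3 and 92.3% for H2A.Z. A count of 8 or 10 of 10 for the histone marks thus lies close to the share of long genes. The counts for WDR5A-HA, the Pol II forms and TBP also lie closer to these shares than to those of all genes.

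**Figure D1:**
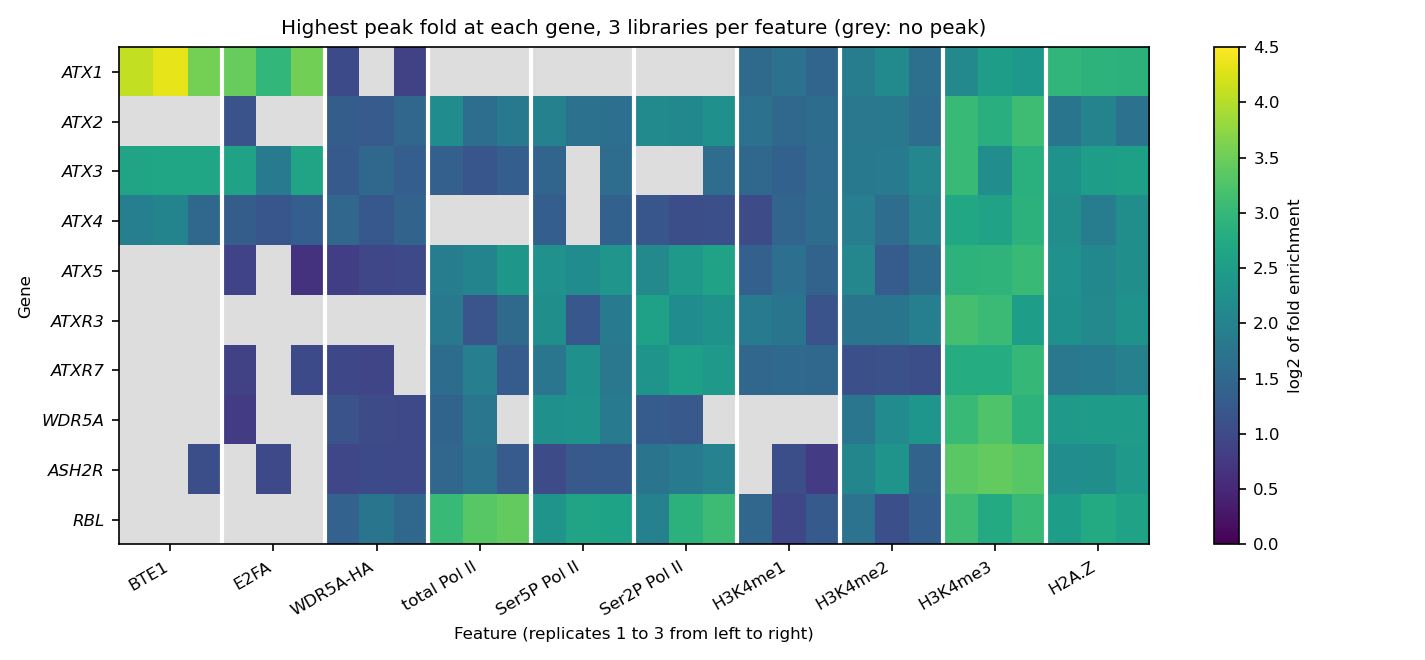
Log2 of the fold enrichment of the highest peak at each of the 10 genes (rows) in each of 30 wild-type libraries (columns, 3 per feature), with grey where no peak was found. ATX1, ATX3 and ATX4 carry BTE1 and E2FA in all 3 libraries, and ATX1 is grey for all 9 Pol II libraries.

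Since the gene table gives no strand, each gene was oriented by H3K4me3: an end was called the marked end when the highest-scoring H3K4me3 summit lay on that side, at a relative position below 0.4 or above 0.6 of the gene, in all 3 libraries. This oriented 14565 genes, of which 10351 were at least 2000 bp long, and all 10 genes of interest. Summits up to 500 bp outside a gene counted, and RBL was oriented by such summits. The other end is called the far end here. Positions are given as distances from the marked end, negative outside the gene.

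ATX1 (AT2G31650, chromosome 2), which encodes an enzyme that adds H3K4me3, stood apart from the other 9 genes. Its BTE1 peak had a fold of 17.0, 20.2 and 11.8 in replicates 1, 2 and 3 (16.4 ± 4.23, SD, n = 3), rank 36 of the 1462 genes called for BTE1. E2FA at the same place had 10.9, 7.86 and 11.6 (10.1 ± 2.00, SD, n = 3), rank 204 of the 2456 genes called. In every library ATX1 had the highest BTE1 and E2FA fold of the 10 genes, and its range did not overlap that of ATX3, the next in order.

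The BTE1 peak of replicate 1 lay on chromosome 2 from 13461771 to 13462691 (TAIR10), across the marked end of ATX1. The neighbouring gene on that side, SAD2, was 1862 bp away and was called for E2FA but not for BTE1. BTE1 summits were 39, 37 and 35 bp inside the marked end, and E2FA summits 37, 66 and 35 bp. The mean positions were 37.0 ± 2.00 bp for BTE1 and 46.0 ± 17.3 bp for E2FA (difference -9 bp, exact permutation test, two-sided, p = 0.9, adjusted p = 0.9 over 3 genes). With 3 libraries each the smallest possible p was 0.1, so this test cannot decide whether the positions differ, here or at the genes below.

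At ATX1 no total Pol II, Ser5P or Ser2P peak was found in any of 9 libraries and no TBP region. The absence of Pol II peaks of any form from the 9 libraries, TBP left aside, held for 35.4% of all genes, 28.4% of genes called for BTE1 and 15.2% of genes called for H3K4me3. WDR5A-HA peaks at ATX1 were found in replicates 1 and 3, at a fold of 2.02 and 1.86, and not in replicate 2. Both lay at the marked end, 11 and 63 bp inside it.

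ATX1 also had the highest H2A.Z fold and the lowest H3K4me3 fold of the 10 genes. H2A.Z was 7.78, 7.52 and 7.44 (7.58 ± 0.177, SD, n = 3), above every library of the next gene, RBL, which ranged up to 6.76. H3K4me3 was 4.33, 5.65 and 5.24 (5.08 ± 0.677), below every library of ATX4, the next gene by mean, although ATX3 reached down to 4.59. Of 16909 genes called for both marks, 493 (2.92%) had an H2A.Z fold at least as high as ATX1 and 2528 (15.0%) an H3K4me3 fold at most as high. Both were met by 53 genes, 0.313%, with ATX1 counted. The cut-offs were ATX1's own values in 2 marks where it was extreme among the 10 genes, so small shares follow from the choice. Against its sister gene ATX2, ATX1 was higher in H2A.Z in 3 of 3 libraries, by a fold difference of 4.04 ± 0.487, and lower in H3K4me3 in 3 of 3 libraries, by -2.86 ± 1.31 (SD of the differences, n = 3).

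**Figure D2:**
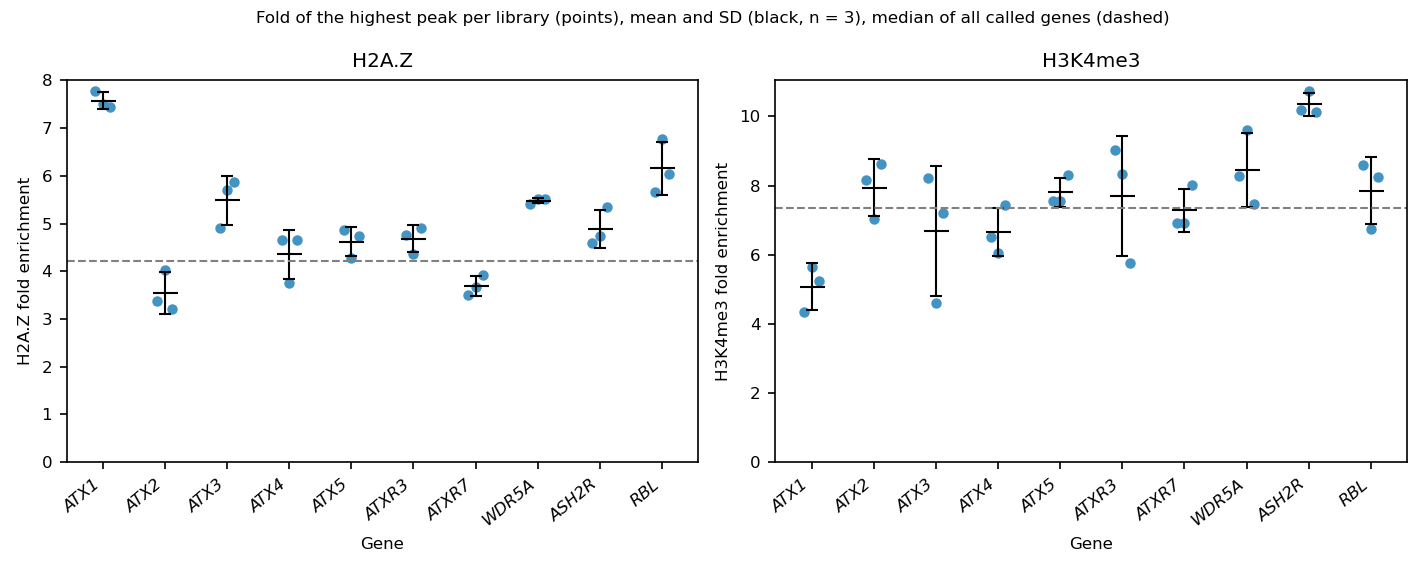
Fold enrichment of the highest H2A.Z (left) and H3K4me3 (right) peak at each of the 10 genes in each library (points), with the mean and SD in black (n = 3) and the median of all called genes dashed. ATX1 has the highest H2A.Z mean (7.58) and the lowest H3K4me3 mean (5.08), and ASH2R the highest H3K4me3 mean (10.3). The H3K4me3 summits read at RBL lie outside that gene. So do the H2A.Z summits read at ATX3, which lie within RMF, and the H2A.Z summit read at ATX4 in replicate 1.

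ATX3 (AT3G61740, chromosome 3), one of the enzymes that act redundantly with ATX4 and ATX5 in H3K4 di- and trimethylation, carried E2FA at both ends and BTE1 mainly past the far end. BTE1 had a fold of 6.18, 6.30 and 6.27 (6.25 ± 0.0602, SD, n = 3), with summits 162, 165 and 166 bp past the far end, in the 335 bp gap before the gene RMF, which was called for BTE1 and E2FA too. The peak of replicate 1 ran on chromosome 3 from 22850247 to 22850847 (TAIR10). At the marked end BTE1 had a peak in replicate 3 alone, with a fold of 2.60.

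E2FA was found at both ends of ATX3 in all 3 libraries. At the marked end its fold was 5.12, 3.37 and 6.19 (4.89 ± 1.42), and at the far end 6.002, 3.62 and 6.07 (5.23 ± 1.40, SD, n = 3 each). The highest E2FA peak was at the far end in replicates 1 and 2 and at the marked end in replicate 3. The mean position was therefore 6369 ± 2.08 bp for BTE1 and 4181 ± 3715 bp for E2FA, a difference of 2188 bp (exact permutation test, two-sided, p = 0.1, the smallest possible, adjusted p = 0.3). Without replicate 3 the difference was 42.5 bp. Which of the 2 adjoining genes the far-end peaks belong to was not tested.

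WDR5A-HA at ATX3 lay at the marked end, at 2.42, 2.85 and 2.53, beside the E2FA peak there. Total Pol II was called only through peaks with summits at -541 to -513 bp from the marked end, next to AT3G61750, a gene called for Pol II itself. H2A.Z at ATX3 was 4.05, 3.90 and 4.30 at the marked end. The H2A.Z peaks at the far end had 4.90, 5.69 and 5.87, higher in 3 of 3 libraries. Their summits lay 550, 433 and 487 bp past the far end, within RMF, which was also called for H2A.Z. The highest H2A.Z fold read for ATX3 was therefore read outside ATX3.

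ATX4 (AT4G27910, chromosome 4) had the weakest DREAM signal of the 3 genes. BTE1 had 3.83, 4.10 and 2.84 (3.59 ± 0.661) and E2FA 2.50, 2.32 and 2.54 (2.45 ± 0.118, SD, n = 3). Its BTE1 peaks shared no base in the 3 libraries: summits lay at -68 and -77 bp from the marked end in replicates 1 and 3, and at 318 bp in replicate 2. When the peaks of all 3 libraries had to share a base, BTE1 was called at 2 of the 10 genes, against 5.26% of all genes, and E2FA at 3, against 8.18%.

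The E2FA peaks shared by the 3 libraries at ATX4 lay at the far end, with a fold of 2.18, 2.32 and 2.54, while at the marked end E2FA was found in replicates 1 and 3. In replicate 2 BTE1 also had a far-end peak, with a fold of 3.82. The gene PYL10, 511 bp past the far end, was called for E2FA, Ser2P and TBP. BTE1 and E2FA positions averaged 57.7 ± 226 bp and 4358 ± 4006 bp (difference -4300 bp, exact permutation p = 0.4, adjusted p = 0.6). WDR5A-HA at ATX4 lay at the marked end, at 2.81, 2.35 and 2.68. ATX4 had no total Pol II peak in any library and Ser5P peaks in replicates 1 and 3, at 2.54 and 2.63. Ser2P at its far end was 2.31, 2.12 and 2.15, the lowest of the genes called for Ser2P, with a range that did not overlap that of ASH2R, the gene above it.

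ATX5 (AT5G53430, chromosome 5), the third gene of this subfamily, had no BTE1 peak in any library and E2FA peaks in 2, at 1.88 and 1.58, 6125 and 6193 bp from the marked end. Among these 3 related genes ATX3 was higher than ATX4 in BTE1 in 3 of 3 libraries (difference 2.66 ± 0.670, SD, n = 3). Pol II folds read at ATX5 were higher, though they were not read alike at the 3 genes. Ser2P at ATX5 was 4.33, 5.36 and 6.03 (5.24 ± 0.858), above ATX4 in 3 of 3 libraries, and total Pol II was 4.33 ± 0.773, above ATX3 at 2.48 ± 0.164 in 3 of 3 libraries. The total Pol II summits read at ATX3 lay outside that gene, as given above. The Pol II peaks of ATX5 had summits 6221 to 6380 bp from the marked end, inside a gene of 6977 bp. ATX5 overlaps its neighbour AT5G53440, itself called for all 3 forms. WDR5A-HA at the marked end was 1.78, 1.80 and 1.99.

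**Figure D3:**
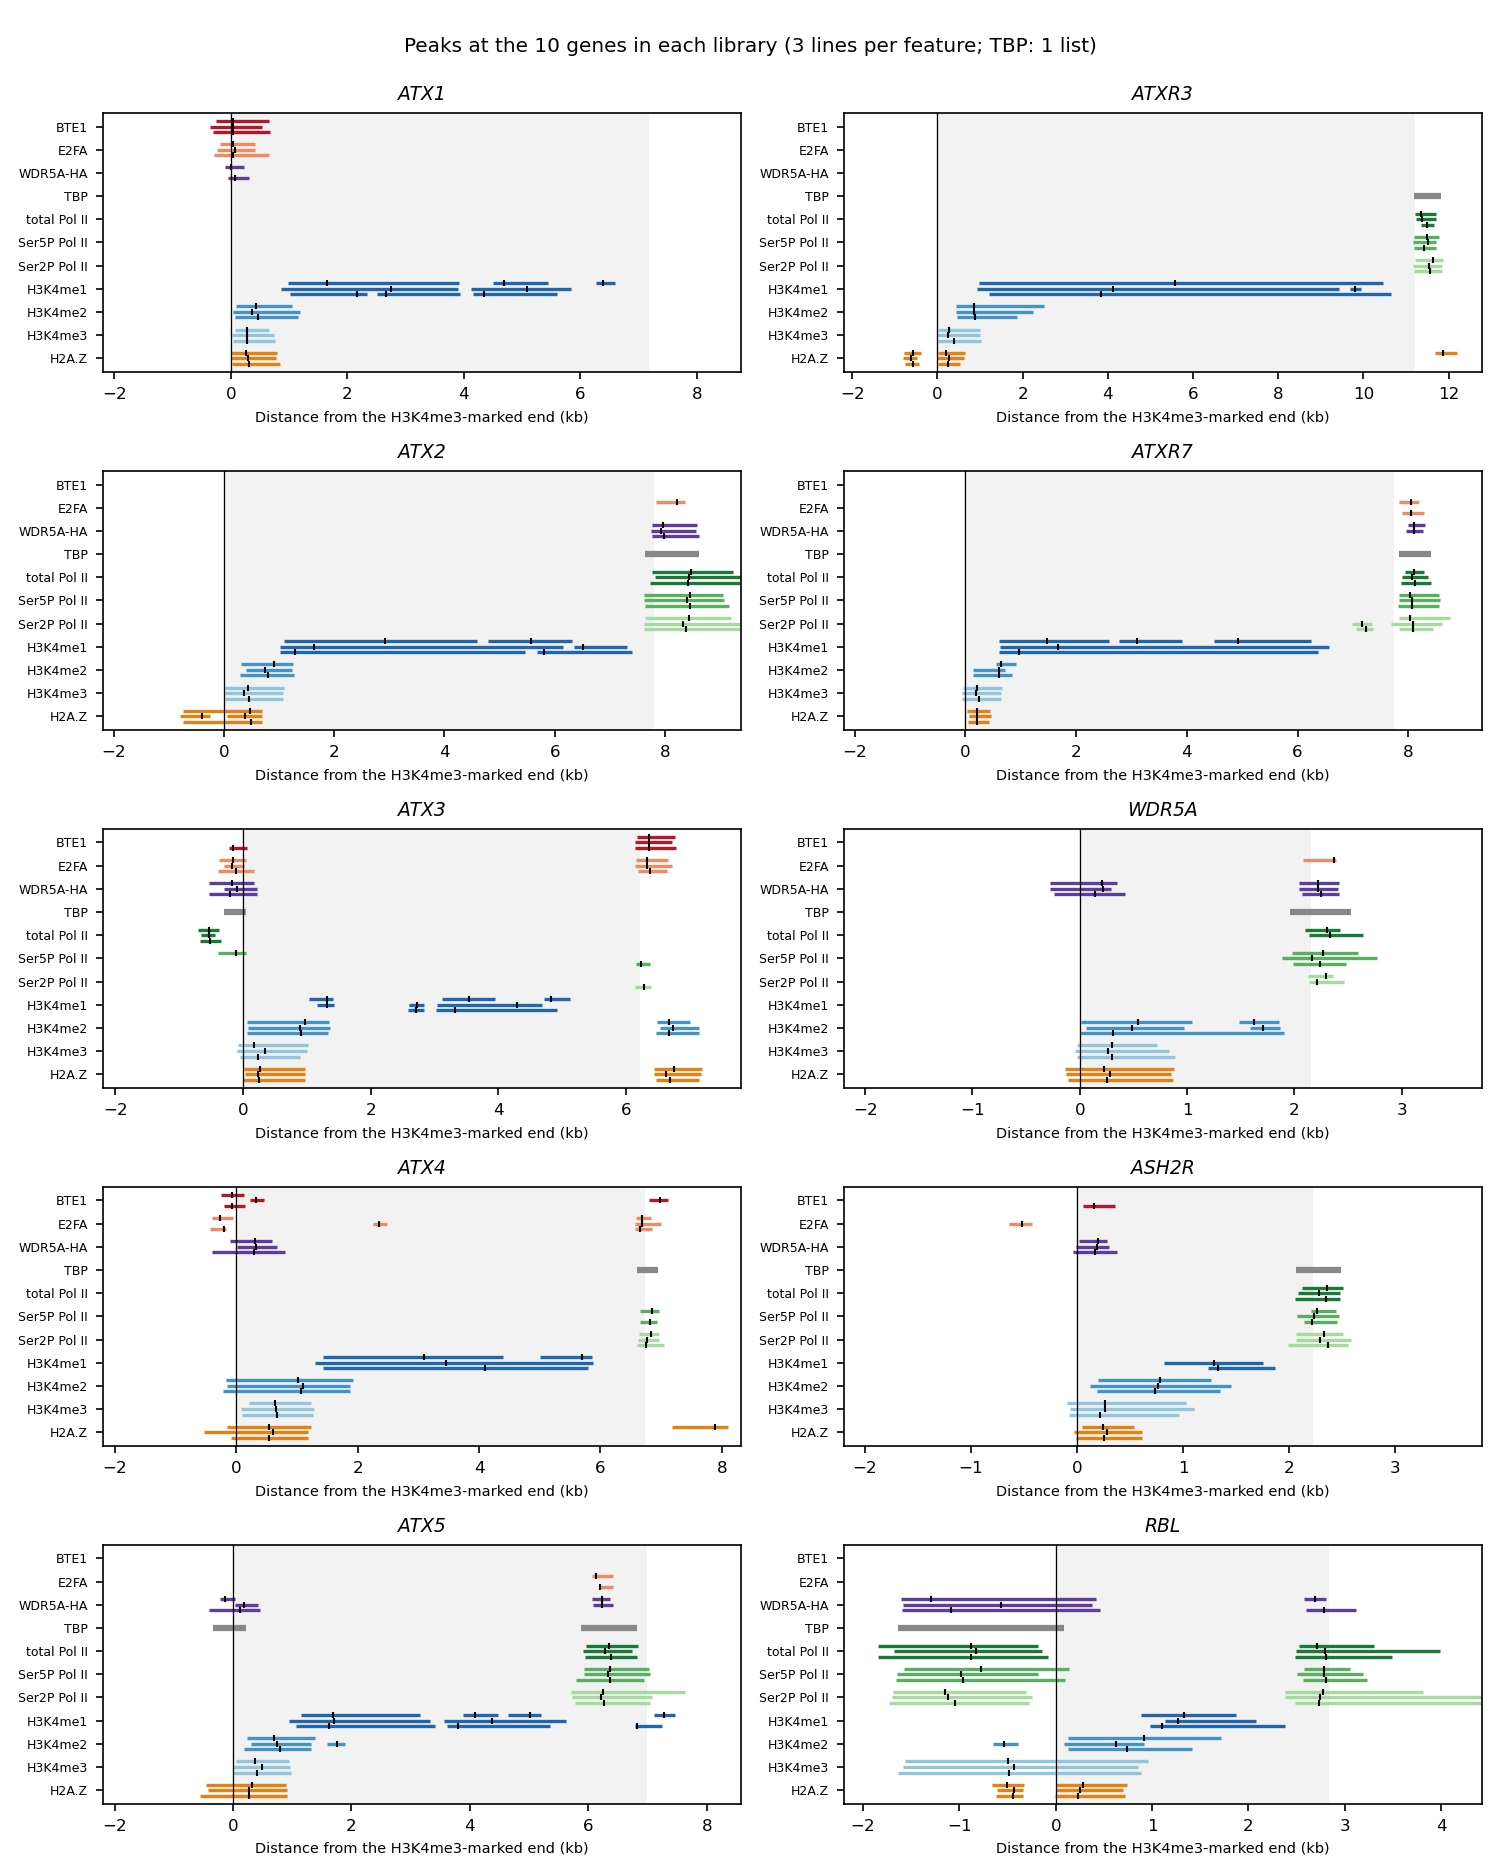
Peaks along the 10 genes, as distance from the H3K4me3-marked end in kb, with the gene shaded, 3 lines per feature for replicates 1 to 3, ticks at summits and 1 line for the TBP list. BTE1 and E2FA sit at the marked end of ATX1 and past the far end of ATX3, H3K4me1 lies over the bodies of the methyltransferase genes, in ATX3 over the smallest share, and Pol II peaks lie mostly at or past the far end.

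ATX2 (AT1G05830, chromosome 1) had no BTE1 peak and 1 E2FA peak, of 2.21 in replicate 1. Its WDR5A-HA peaks (2.51, 2.45 and 2.78) and all its Pol II peaks had summits past the far end, 7928 to 8471 bp from the marked end. All the Pol II summits lay inside AT1G05835, and the WDR5A-HA summits in the 235 bp gap before it. AT1G05835 and AT1G05840 were called for the same 4 features. At the marked end ATX2 had H3K4me3 of 8.15, 7.03 and 8.63 and the lowest mean H2A.Z of the 10 genes, 3.38, 4.03 and 3.20 (3.54 ± 0.438, SD, n = 3). Its H2A.Z range overlapped that of ATXR7.

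ATXR3 (AT4G15180, chromosome 4), also known as SDG2, which encodes the main enzyme for H3K4me3, was the only 1 of the 10 genes with no BTE1, E2FA or WDR5A-HA peak in any library. No WDR5A-HA peak in 3 libraries was found at 35.7% of all genes and 11.8% of genes called for H3K4me3. Its own H3K4me3 was 9.02, 8.34 and 5.75 (7.70 ± 1.73), with summits 244 to 383 bp inside the marked end. Pol II summits at ATXR3 lay past the far end, where FH3 began after 236 bp. Ser2P there was 5.96, 4.57 and 4.97, with summits inside FH3.

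ATXR7 (AT5G42400, chromosome 5), also known as SDG25, had the lowest H3K4me2 of the 10 genes, 2.15, 2.16 and 2.11 (2.14 ± 0.0249), within reach of the lowest library of RBL. WDR5A-HA was found in replicates 1 and 2 at 1.96 and 1.91, past the far end. Ser2P was 5.03, 5.84 and 5.35 (5.41 ± 0.412), also past the far end. The summits of both features lay inside SPP, which began 161 bp past that end.

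H3K4me1 lay over the bodies of the 7 methyltransferase genes. The share of the gene covered by H3K4me1 peaks was 84.9%, 78.3% and 84.3% at ATXR3 (82.5% ± 3.65), and its widest peak in each library spanned 9489, 8493 and 9426 bp. In replicate 1 this peak ran on chromosome 4 from 8652373 to 8661861 (TAIR10). Coverage was 74.1% ± 8.26 at ATX2, 71.6% ± 7.30 at ATXR7, 63.4% ± 5.97 at ATX4, 61.1% ± 4.65 at ATX1 and 56.8% ± 10.1 at ATX5 (SD, n = 3 each). Against a median of 51.7% over 5069 called genes of 3000 bp or more, 6 of the 7 methyltransferase genes had a higher mean and ATX3, at 31.7% ± 4.77, a lower one.

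The core subunit genes differed in H3K4me1. RBL was called in 3 of 3 libraries and covered over 39.5% ± 8.93, a higher mean than at ATX3 and against a median of 42.4% over all called genes. ASH2R was covered over 0%, 42.1% and 28.5% in the 3 libraries, and WDR5A had no H3K4me1 peak. Within 500 bp of the marked end H3K4me1 was called at none of the 10 genes, against 1.21% of oriented genes of 2000 bp or more, and within 500 bp of the far end at none, against 6.31%. H3K4me1 fold itself varied little, and every neighbour in the order of the 8 called genes, 3.04 ± 0.734 at ATXR3 to 2.39 ± 0.436 at RBL, overlapped the next in its range.

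WDR5A (AT3G49660, chromosome 3), the WD40 scaffold subunit whose tagged protein was precipitated, carried WDR5A-HA at its own gene. The fold was 2.22, 2.06 and 1.99 just past the far end (2.09 ± 0.121) and 1.77, 1.34 and 1.75 at the marked end (1.62 ± 0.242, SD, n = 3 each). The far-end peak was higher in 3 of 3 libraries. Its fold had rank 12260 of the 14205 genes called for WDR5A-HA. Whether a transgene copy of WDR5A adds to these peaks was not tested. Ser5P at the far end was 4.78, 4.93 and 3.56, while total Pol II and Ser2P were found in replicates 1 and 2 alone.

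ASH2R (AT1G51450, chromosome 1), the ASH2-type subunit also known as TRAUCO, had the highest H3K4me3 of the 10 genes, 10.2, 10.7 and 10.1 (10.3 ± 0.334, SD, n = 3), rank 135 of the 17603 genes called. Every library exceeded those of the next gene, WDR5A, at 8.28, 9.59 and 7.47. WDR5A-HA lay at the same end, at 1.94, 2.02 and 1.98, with summits 166 to 197 bp inside it. BTE1 and E2FA each had a peak in 1 library, of 2.11 and 2.00.

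RBL (AT3G21060, chromosome 3), the RbBP5-like subunit, had the highest mean Pol II folds, 8.26, 10.1 and 10.7 for total Pol II (9.67 ± 1.26) and 5.79 ± 0.666 for Ser5P and 6.60 ± 2.39 for Ser2P (SD, n = 3). Its range lay above that of the next gene for total Pol II only. For Ser5P it overlapped that of ATX5, and for Ser2P its replicate 1, at 3.92, was below ATX2, ATX5, ATXR3 and ATXR7 in the same replicate. These summits did not lie in RBL: for total Pol II they lay at -884 to -823 bp from the marked end, within PSBTN, a gene for a photosystem II subunit 164 bp away. The H3K4me3 peak at RBL, 2494 ± 45.1 bp wide, also had its summits within PSBTN, at -492, -436 and -480 bp. The H3K4me3 fold given for RBL was therefore read outside RBL. A weaker set of total Pol II peaks at the far end, 3.01, 5.50 and 3.76, lay where RBL overlaps NADK1. The WDR5A-HA peaks read at RBL had the highest mean of the 10 genes, 2.67, 3.37 and 2.87, but their summits, at -1299, -566 and -1084 bp, lay outside RBL and its flank on the side of PSBTN. They were 2011 ± 53.0 bp wide, and the range of their fold overlapped those of ATX4, ATX3 and ATX2. No BTE1 or E2FA peak was found at RBL.

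The ends at which features sat could be set against all oriented genes of 2000 bp or more. BTE1 was called at the marked end of 2 of 10 genes, against 5.68% of these genes, and at the far end of 1, against 2.06%. E2FA was called at the marked end of 2, against 8.39%, and at the far end of 2, against 3.58%. WDR5A-HA was called at the marked end of 6, against 59.2%, and at the far end of 2, against 39.2%.

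Pol II and TBP sat mainly at far ends, at these genes as at genes in general. Total Pol II was called at the marked end of 2 of 10 genes, against 31.1%, and at the far end of 6, against 58.1%. Ser5P was called at the marked end of 1, against 29.9%, and at the far end of 7, against 57.8%. Ser2P was called at the marked end of 1, against 20%, and at the far end of 7, against 64.7%. TBP touched the marked end of 3, against 46.2%, and the far end of 7, against 60.8%. With the gene body alone as the window, total Pol II was called at 3 of the 10 genes, ATX5, ASH2R and RBL. The share of all genes under this window is not given here. The calls lost were those of ATX2, ATXR3 and ATXR7, with summits past the far end, and of ATX3, with summits outside the marked end.

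**Figure D4:**
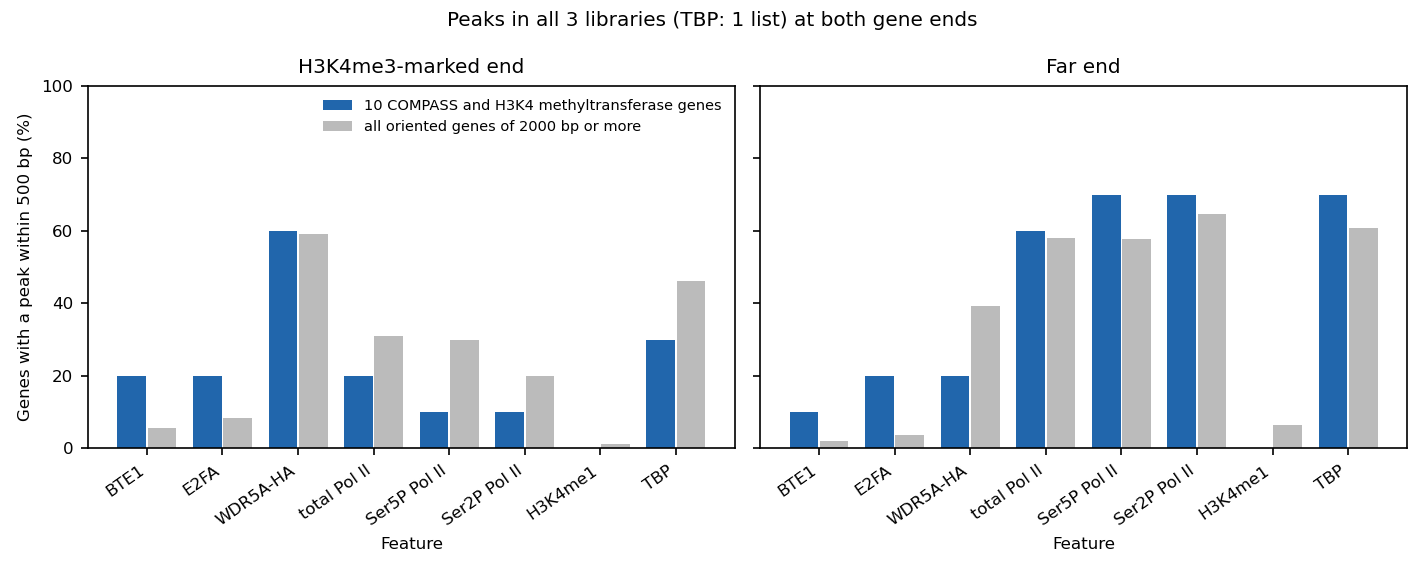
Percent of genes with a peak within 500 bp of the H3K4me3-marked end (left) and of the far end (right), for the 10 genes (blue) and for the 10351 oriented genes of 2000 bp or more (grey), with peaks required in all 3 libraries (TBP in its 1 list). For Ser5P, 7 of the 10 genes have a far-end peak and 1 a marked-end peak.

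Likeness over all 30 libraries was measured as the Euclidean distance between profiles of log2 fold, with a fold of 1 where no peak was found. Among the 10 genes ATX2 and ATX5 were closest, at 1.95, followed by ATX5 and ATXR7 at 2.17. The farthest pair was ATX1 and RBL at 12.7, and the sister genes ATX1 and ATX2 were 10.8 apart. ATX3 and ATX4 were each closest to the other, at 3.89. All these distances compare the highest peaks in the windows, not in the genes alone. Pol II peaks read at ATX2 and total Pol II peaks read at RBL had summits in neighbouring genes. With a fold of 1 for no peak, the distances also reflect whether a peak was found.

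Over all genes more than 5000 bp away, the nearest profiles to ATX1 were AT5G63550 and AT4G02110, at 1.75 and 1.80, against a median distance of 11.0. Both were called for BTE1, E2FA, the 3 H3K4 marks and H2A.Z, and for none of WDR5A-HA, TBP and the Pol II forms. The distances came from the same 30 libraries as the calls. Likeness in calls other than TBP thus follows from the choice, here and for the nearest genes below. Nearest to ATX3 were AT5G48460 (2.17) and AT5G65120 (2.66), and to ATX4 AT5G05675 (2.51) and RAE1 (2.53). Nearest to WDR5A were AT1G18265 (2.41) and KRP6 (2.60), neither called for H3K4me1.

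Other genes of H3K4 methylation and related SET-domain genes, 21 in all, were read in the same way. BTE1 was called at 4, namely FLD, ING2, ASHR3 and ATXR6, and E2FA at 5, namely JMJ16, JMJ18, ING2, ASHR3 and ATXR6, read against the shares of all genes given above. None of 3 further COMPASS-related genes (WDR5B, S2LA and S2LB) was called for BTE1 or E2FA, and 3 of 3 were called for WDR5A-HA and each form of Pol II. Of the 21 genes, 13 were called for WDR5A-HA, 14 for total Pol II and 18 for H3K4me1, against 51.8%, 46.7% and 38.3% of all genes. Among genes of 3000 bp or more these shares were 63.5%, 58.2% and 72.3%.

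The SET-domain gene ASHR3 (AT4G30860) had a BTE1 fold of 22.0, 20.6 and 20.4 (21.0 ± 0.901) and an E2FA fold of 16.8, 14.1 and 22.2 (17.7 ± 4.10, SD, n = 3). Like ATX1 it had no total Pol II peak, and unlike ATX1 it had no H3K4me3 peak in any library. ATXR6 (AT5G24330), an H3K27 monomethyltransferase gene, had BTE1 at 4.31, 9.57 and 6.29 and E2FA at 7.06 ± 0.812. The demethylase-like gene FLD (AT3G10390) had BTE1 at 3.20 ± 1.13, and the PHD-finger gene ING2 (AT1G54390) had BTE1 at 4.08 ± 0.496 and E2FA at 2.62 ± 0.440, in both genes at the far end. The demethylase genes JMJ16 (AT1G08620) and JMJ18 (AT1G30810) had E2FA at 1.84 ± 0.182 and 2.50 ± 0.358, and the JMJ16 peaks shared no base in the 3 libraries.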

How the data were processed

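Chromatin immunoprecipitation was followed by sequencing. Per the submitters' processing notes, fastp, Bowtie2 2.3.3, MACS2 2.2.5, deepTools and the build TAIR10 were used, with a control for peak calling not given in the sources used here. Each deposited library list holds each peak's bounds and summit, a score, a fold enrichment (ratio) and −log10 p and q. As tested on the files, the score deposited by the authors is 10 times −log10 q, except in E2FA lists, where −log10 p takes its place, so the E2FA lists were selected on p and are more lenient. The deposited lists of the whole series hold positions only.

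Genes came from the RefSeq table of TAIR10.1, used for names and bounds, without strand; of 15948 replicate 1 H3K4me3 summits 96.9% fell inside genes, against 67.8% and 69.9% after shifts of 1000 and 2000 bp. Peaks overlapping a gene or its 500 bp flanks by 1 bp counted. The fold read at a gene is that of its highest peak. Summit positions of BTE1 and E2FA were compared by exact permutation, with Benjamini-Hochberg adjustment. Same-numbered BTE1 and E2FA libraries deviated together over 1128 genes called for both (correlations 0.522, 0.428 and 0.526, against -0.320 to -0.208 for other pairs), so the numbers were taken as pairs. Named genes were the 10 genes, the genes of 4 other lists called for BTE1 or E2FA, and the 2 nearest profiles of each gene called for BTE1 or E2FA and of WDR5A. The genes and lists were chosen with earlier results of these data known. Calls and orientation were tested on simulated peaks, where 100% of 200 seeded genes were called and oriented rightly and 3 other genes were called. The seeded peaks were stronger than the simulated noise and lay inside genes set well apart from their neighbours. Peaks shared with a close neighbour, as at several of the 10 genes, were therefore not tested. The promoter motif search and sequences were not run, for want of a genome sequence here. Versions were matplotlib 3.10.9, scipy 1.17.1, pandas 2.3.3, numpy 2.4.6, Python 3.11.15 and, for adjusted p-values, statsmodels 0.14.6.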

Additional observations from a re-analysis of the deposited data

How the results depend on the processing

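Most counts kept their size under the alternatives: 182 values of the main comparisons moved by less than their limit, 26 moved and 1 reversed. For E2FA the count of the 10 genes was 3 to 5 over the left-out replicates, 5 with peaks in at least 2 libraries, 8 in at least 1 and 6 with the list of the whole series, and of the 21 other genes 8 in at least 2 libraries. With peaks above the median score, the 10 genes gave 3 for total Pol II, 5 for H3K4me1 and 5 for H3K4me3, and the 21 others 2 for BTE1, 4 for WDR5A-HA, 9 for total Pol II, 8 for Ser2P, 7 for H3K4me2 and 9 for H3K4me3. With the gene body alone, total Pol II gave 3 of the 10 and BTE1 2 of the 21. At the marked end alone (chosen after seeing the data, as were the far end and the shared base) total Pol II gave 2, Ser5P 1, Ser2P 1 and H3K4me1 0. At the far end alone BTE1 gave 1, WDR5A-HA 2, H3K4me1 0, H3K4me2 2, H3K4me3 0 and H2A.Z 1. Where windows or peak sets are smaller, fewer genes can be called by construction, and where fewer libraries are required, more can. This holds for all genes too. Except where given above, the shares of all genes under these alternatives are not given. The counts therefore show how calls depend on the rule and are no result about these genes. The BTE1 minus E2FA summit difference at ATX1 was -14.5 to 1 bp over the left-out replicates. The replicate block took same-numbered libraries as pairs. By construction this leaves the calls and the mean differences, -9, 2188 and -4300 bp for ATX1, ATX3 and ATX4, as they were. The exact sign-flip test gave p = 1, 0.25 and 0.5, where 0.25 is the smallest possible, so it could show no difference. The window around gene starts by strand was not run, since no strand was at hand. Depth was unknown, so absent peaks carry no limit on the signal.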
